A study of Mus musculus with 391 samples.

Results

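The 10 genes described here mark or act in the arteriovenous identity of blood vessels, or join vascular cells through gap junctions: Efnb2, Ephb4, Nr2f2, Gja4, Gja5, Gja1, Bmx, Gkn3, Sema3g and Unc5b. They were taken by name from a deposited count table of 56941 genes, of which 31131 had 0 reads in every cell. The table holds 391 single cells of adult mouse brain, obtained by mechanical and enzymatic breakdown of the tissue, isolation of vascular fragments and a further digestion, and sequenced by Smart-seq2. Smart-seq2 is a full-length protocol without molecular identifiers. The labels put 111 cells in an endothelial class, coded CP-EC in the deposited cell table, and 280 in a microglia class, coded MG, which served as background because these vascular genes should be low in it. No treatment, genotype, strain, sex or animal is given, which makes each class a single sample, and nothing was tested between classes or from cells.

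Arteries and veins differ in molecular identity as well as in flow. Efnb2 encodes ephrin-B2, a membrane ligand of arterial endothelium, and Ephb4 encodes its receptor tyrosine kinase, which is enriched in venous endothelium. Nr2f2 encodes COUP-TFII, a nuclear receptor that maintains venous fate. Gja4, Gja5 and Gja1 encode connexins, the subunits of gap junction channels. Gja4 and Gja5 are known from arterial endothelium, whereas Gja1 is found in endothelium, smooth muscle and astrocytes and was put in neither set. Bmx is a Tec-family kinase, Gkn3 a gastrokine known from arterial endothelium of the mouse brain, Sema3g a secreted class 3 semaphorin and Unc5b a netrin receptor. These 4 are known from arterial endothelium, so 7 genes formed the arterial set and Ephb4 and Nr2f2 the venous set.

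The promoters of the ephrin ligand, its receptor and the arterial connexin Gja4 are shown because the carrier classes described further on rest mostly on these 3 genes. Each run is the 250 bases before the RefSeq start on GRCm38.p6, an older build than that of the counts, printed along the gene's strand. Capitals mark GGAA, the core of ETS factor sites, and GGGCGG, the GC box, on either strand, so that a match on the other strand reads as the reverse complement. Efnb2 lies on the minus strand, and the run is chr8:8661243-8661492. Ephb4 lies on the plus strand, at chr5:137349859-137350108. Gja4 lies on the minus strand, at chr4:127314040-127314289.
Efnb2: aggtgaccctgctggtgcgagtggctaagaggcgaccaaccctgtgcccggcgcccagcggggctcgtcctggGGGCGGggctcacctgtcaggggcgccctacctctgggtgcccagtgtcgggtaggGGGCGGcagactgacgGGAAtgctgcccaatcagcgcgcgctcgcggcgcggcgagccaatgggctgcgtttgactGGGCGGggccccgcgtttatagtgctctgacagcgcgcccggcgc
Ephb4: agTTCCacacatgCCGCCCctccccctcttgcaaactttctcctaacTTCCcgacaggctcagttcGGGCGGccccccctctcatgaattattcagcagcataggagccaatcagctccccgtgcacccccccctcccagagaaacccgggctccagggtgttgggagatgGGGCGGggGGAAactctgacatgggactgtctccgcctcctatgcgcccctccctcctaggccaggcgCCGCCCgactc
Gja4: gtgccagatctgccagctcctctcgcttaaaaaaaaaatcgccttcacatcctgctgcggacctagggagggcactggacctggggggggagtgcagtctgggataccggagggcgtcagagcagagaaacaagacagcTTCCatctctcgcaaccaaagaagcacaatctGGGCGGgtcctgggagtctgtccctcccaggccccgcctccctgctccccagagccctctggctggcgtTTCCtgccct
GGAA occurred 1 time before Efnb2, 3 times before Ephb4 and 2 times before Gja4, and GGGCGG 3, 4 and 1 times. Of 32851 RefSeq promoter windows of this length, 93.4% held GGAA and 32.7% held GGGCGG. The core of RBPJ sites, TGGGAA, within which GGAA lies, was in 21.6% of windows. AGGTCA, a core of COUP-TF sites, was in 14.0% and AACAAT, a SOX core, in 9.42%. None of these 3 motifs was in the windows of Efnb2, Ephb4 or Gja4. A match is a run of letters, not a bound site, and no match says only that the letters are not in this window.

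An endothelial cell had a median of 174345 gene reads (83954 to 602175) and a microglia-class cell 146506 (39876 to 504875). Endothelial cells came from 4 plates, read from the column names and called A to D, with 7, 10, 50 and 44 cells. Microglia-class cells were on plates A (133) and B (147) only. All 12 endothelial markers were at least 4-fold higher in the endothelial class, where their summed level per cell was 9997 to 45318 CPM (counts-per-million of the gene reads). The 8 markers of fenestrated endothelium were too, at 25796 CPM summed. The macrophage markers summed to 48.2 CPM there, and the lymphatic markers Prox1, Reln and Ccl21a had 0 reads. In 18 endothelial cells the summed markers of another type reached 500 CPM, namely ependymal or choroid plexus epithelial (9 cells), smooth muscle (3), pericyte (3), astrocyte (2) and macrophage (1). Such a sum can rest on few genes. In the epithelial list Ttr reached 10 reads in 15 endothelial cells and Aqp1 in 9, but Foxj1, Folr1, Kl, Tmem212 and Ccdc153 in 0. A sum over 500 CPM therefore does not by itself show RNA of that cell type. The part of these 18 cells' other markers in the results was not tested. Values without the cells are given with the members' levels, classes and pairs.

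Most reads of the group came from Ephb4, Gja1, Gja4 and Efnb2, whereas Gja5, Bmx and Gkn3 were close to absent from the endothelial class. Of the 10 members, 8 reached 1 CPM in either class and 7 of these were at least 4-fold higher in the endothelial class, on a log2 scale with 1 CPM added. These were Efnb2, Gja4, Sema3g, Unc5b, Ephb4, Nr2f2 and Gja1. Across 14989 genes at 1 CPM or more, 11.7% were that much higher in the endothelial class and 19.9% in the microglia class. On that scale no member was 4-fold higher in the microglia class. Gja5 lay between, and Bmx and Gkn3 stayed under 1 CPM in both classes. The median log2 ratio of endothelial over microglia class was 4.92 over the 8 members and -0.36 over all genes. Parentheses after levels, ratios and shares hold 95% intervals, exact Poisson, exact conditional binomial and Clopper-Pearson in turn. They cover counting error only and treat reads and cells as independent draws. A cell is said to carry a gene at 10 reads or more. Over the same genes, 10.6% were carried by at least 25% of endothelial cells, as were 3 of the members, Efnb2, Ephb4 and Gja1.

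**Figure D1:**
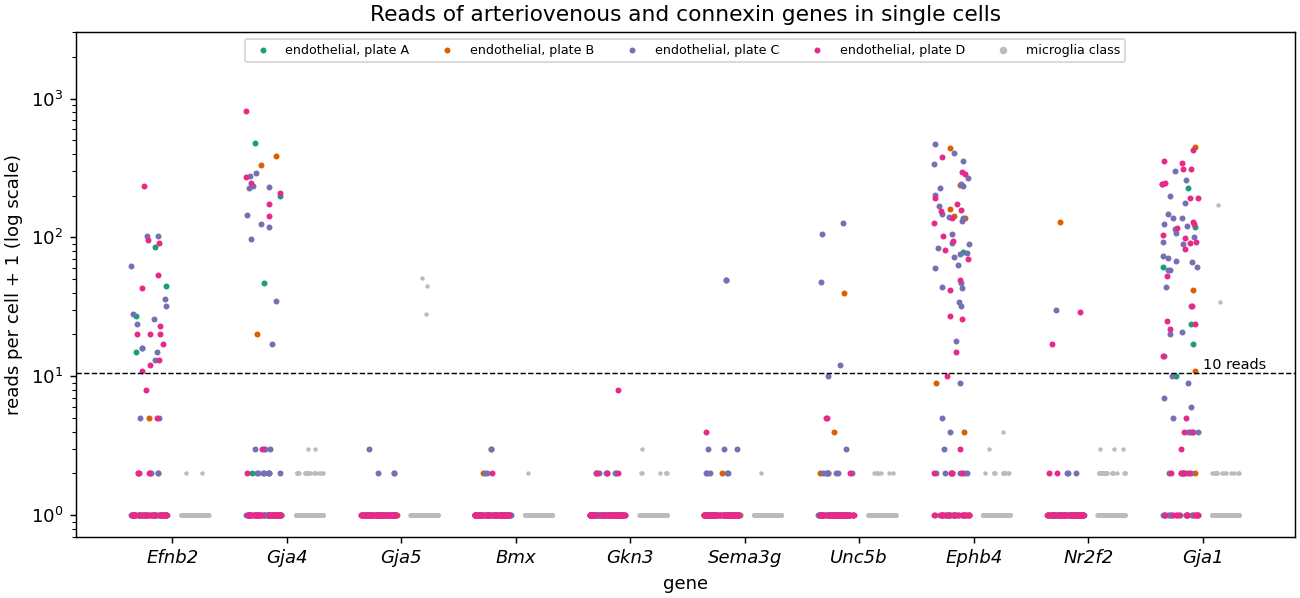
Reads of each gene in each cell, plus 1, on a log axis; coloured points are the 111 endothelial cells by plate, grey points the 280 microglia-class cells, with sideways scatter for visibility, and the dashed line marks 10 reads. Gja4, Ephb4 and Gja1 reach over 100 reads in some endothelial cells, while Gja5 lies above the line in 3 microglia-class cells only.

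Ephb4, the venous receptor, was more abundant per length than its ligand Efnb2 in the pooled cells and on every plate but A. It stood at 374 CPM (366 to 383) in the endothelial class, from 7999 reads, and 0.316 CPM (0.177 to 0.521) in the microglia class, 1186-fold higher (719 to 2120). By plate its endothelial level was 82.1 CPM on A, 530.8 on B, 462 on C and 274 on D. Every plate lay far above the microglia-class levels of 0.119 and 0.423 CPM on plates A and B. Ephb4 was read in 72 of 111 endothelial cells (64.9%, 55.2 to 73.7) and carried by 53 (47.7%, 38.2 to 57.4). The carriers numbered 1, 5, 29 and 18 on plates A to D, and a carrier had a median of 130 reads. Thinning each cell to 71000 gene reads, which left out 34 microglia-class and 0 endothelial cells, left 48 carriers (43.2%). Over all endothelial cells the lowest, median and highest values were 0, 43.0 and 2237 CPM. Of 280 microglia-class cells, 12 had a read (4.29%), none more than 3, and 0 carried it (0%, 0 to 1.31). A floor of 3 cells allows a share of up to 1.07%. The annotation places Zan on the opposite strand across Ephb4. Zan had 0 endothelial reads. In the 93 cells without other markers Ephb4 was at 369.8 CPM with 42 carriers.

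Efnb2, the ligand, stood at 60.9 CPM (57.6 to 64.3) in the endothelial class and 0.0421 CPM, from 2 reads, in the microglia class. The ratio was 1447-fold (399.7 to 11959). The plates spread widely, at 176, 2.83, 49.6 and 74.6 CPM on A to D. Plate B held 0 carriers among 10 cells and the other plates 4, 12 and 13. In all, 42 endothelial cells had a read (37.8%, 28.8 to 47.5) and 29 carried it (26.1%, 18.2 to 35.3). Many carriers lay near the threshold, 12 of them at 10 to 19 reads with a median of 25 over all, and the highest cell below it had 7. After thinning, 12 endothelial cells carried it (10.8%, 5.71 to 18.1). A plate D cell with 233 reads gave 17.9% of the endothelial reads. Of the microglia class, 2 cells had 1 read each. Efnb2 was at 69.5 CPM with 25 carriers in the 93 cells without other markers.

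Nr2f2, the venous nuclear receptor, was low. Its endothelial level was 9.69 CPM (8.42 to 11.1) against 0.610 CPM (0.409 to 0.877) in the microglia class, 15.9-fold higher (10.7 to 24.3). A single plate B cell held 129 of its 207 endothelial reads (62.3%), and the levels by plate were 0, 60.8, 3.37 and 5.24 CPM. As a mean of per-cell CPM it did not reach 4-fold. Only 9 endothelial cells had a read (8.11%, 3.77 to 14.8), a share below that of the microglia class (26 cells, 9.29%, 6.16 to 13.3), so at 1 read the share is at background. After thinning the shares were 5.41% and 3.25%. At 10 reads there were 4 endothelial carriers (3.60%, 0.990 to 8.97), with 16 or more reads each, and 0 in the microglia class. Nr2f2 was at 10.1 CPM with 3 carriers in the cells without other markers. B130024G19Rik, which overlaps Nr2f2 on the opposite strand, had 0 endothelial reads.

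Gja4, an arterial connexin, was read at high levels in a minority of cells. The pooled endothelial level was 239 CPM (233 to 246) against 0.463 CPM (0.290 to 0.701), 517-fold higher (341 to 826). By plate it stood at 755, 346, 190 and 211 CPM, above the 1.07 and 0.130 CPM of the microglia class on plates A and B. Carriers and other cells were well apart, since the highest endothelial cell below 10 reads had 2 and the lowest above had 16. There were 23 carriers (20.7%, 13.6 to 29.5), with 3, 3, 11 and 6 on plates A to D, and their median was 209 reads. Another 15 cells had 1 or 2 reads, as did 20 microglia-class cells (7.14%, 4.42 to 10.8). Of those 20, 16 were on plate A. Thinning left 21 carriers (18.9%). The highest cell, on plate D, had 813 reads, 15.9% of the total. That cell had the lowest endothelial markers (9997 CPM) and smooth muscle markers at 1419 CPM. Without the 18 cells bearing other markers, Gja4 was at 206 CPM with 19 carriers of 93. Among the 23 carriers the summed smooth muscle markers ran from 0 to 9659 CPM with a median of 6.37, against 0 to 410 with a median of 9.23 in the other 88 cells. Their part in the Gja4 level was not tested beyond the value without them.

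In the pooled cells Gja1 was carried by 58 endothelial cells and Ephb4 by 53, and the order was the other way on plates B and C. It stood at 352 CPM (345 to 360) against 4.53 CPM (3.94 to 5.17), 77.9-fold higher (68.0 to 89.6). The plates were at 469, 233, 286 and 439.9 CPM, closer together than for Ephb4 or Gja4. A read was found in 84 endothelial cells (75.7%, 66.6 to 83.3), and the carriers (52.3%, 42.6 to 61.8) numbered 5, 3, 26 and 24 on plates A to D. The lowest, median and highest endothelial cells were at 0, 84.2 and 3213 CPM. Thinned cells gave 49 carriers (44.1%), against 48 for Ephb4. On plate B, 1 cell gave 443 of the 495 reads. Gja1 is also the main astrocyte connexin. Summed astrocyte markers in its carriers ran from 0 to 70.0 CPM (median 6.67), and in other endothelial cells from 0 to 1792 (median 5.61). Leaving out the 18 cells gave 373 CPM and 50 carriers. The 2 endothelial cells with astrocyte markers over 500 CPM both had 0 Gja1 reads. Of the 9 astrocyte markers only Slc1a2 (3 cells) and Aldoc (1 cell) were carried in the endothelial class, so these sums rest on few genes. An astrocyte part in the Gja1 reads was not tested. In the microglia class 15 cells had a read (5.36%) and 2 carried Gja1, and the other 13 cells with a read had fewer than 10. The plate B carrier had 169 reads, 78.6% of the class total, and astrocyte markers at 729 CPM. Its endothelial markers were at 1091 CPM and its fenestrated markers at 1546, beside 274 and 577 CPM over the class. In the plate A carrier, with 33 reads, these 2 lists were at 42.6 and 815 CPM. Its oligodendrocyte markers were at 1401 CPM and its summed lymphatic list at 2248 CPM. In the microglia class that list was nearly all Lyve1 (137 of 139.6 CPM), which macrophages also express.

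Gja5, the other arterial connexin, was almost unread in the endothelial class. It had 5 reads there, in 4 plate C cells, or 0.234 CPM (0.0760 to 0.546), and 0 on the other plates. The microglia class had 121 reads, 2.55 CPM (2.11 to 3.04). All of them lay in 3 cells, with 27 reads on plate A and 44 and 50 on plate B. Those cells had macrophage markers at 33806 to 41292 CPM. In the same order their endothelial markers were at 649, 750 and 59.7 CPM, beside 274 CPM over the class. Their fenestrated markers were at 663, 1299 and 188 CPM, beside 577. The direct ratio of endothelial over microglia class was 0.0919 (0.0293 to 0.220), so the whole interval lay more than 4-fold lower in the endothelial class. With 1 CPM added to both classes the log2 ratio was -1.52, short of 4-fold. Both values pool all plates. On plates A and B, which hold both classes, the floor of 3 endothelial reads gave direct ratios of at most 1.94 and 0.462. Neither bound reached 4-fold lower. Gpr89 overlaps Gja5 on the opposite strand and was at 12.2 and 33.6 CPM in the endothelial and microglia classes. The use of strand in counting is not given, so reads of that overlap cannot be assigned to 1 gene.

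Unc5b and Sema3g were read mostly on plate C. Unc5b, the netrin receptor, was at 16.8 CPM (15.1 to 18.6) against 0.147, with 0, 20.7, 32.1 and 1.02 CPM on plates A to D. It was read in 20 endothelial cells (18.0%) and 7 microglia-class cells (2.50%), and carried by 5 and 0. The top cell gave 34.9% of its endothelial reads. Sema3g, the semaphorin, was at 5.20 CPM (4.27 to 6.26) against 1 microglia-class read, with 0, 0.471, 11.3 and 0.342 CPM by plate. Its 2 carriers, both on plate C, had 48 reads each, and the next cell had 3. In the carrier whose smooth muscle markers reached 950.1 CPM, Gja4 had 231 reads and Unc5b 125. The other carrier, which is not among the 18 cells with other markers, had 124 and 104. Without the 18 cells bearing other markers, Sema3g was at 3.41 CPM with 1 carrier and Unc5b at 13.1 CPM with 4. On plates A and B alone Sema3g was not 4-fold higher.

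Gkn3 and Bmx had no carrier in either class. Gkn3 had 17 endothelial reads in 11 cells, 0.796 CPM (0.464 to 1.27), against 8 reads in 7 microglia-class cells. The ratio was 4.73-fold (1.93 to 12.7). Its highest cell had 7 reads and epithelial markers at 504 CPM, and without the 18 cells Gkn3 was at 0.454 CPM. Bmx had 8 reads in 6 endothelial cells, 0.375 CPM (0.162 to 0.738), and 1 microglia-class read. For both genes, 0 carriers of 111 gave an interval of 0 to 3.27%, and a floor of 3 cells allows a share of up to 2.70%.

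Levels of different genes were compared per length, as CPM per kilobase of the longest principal transcript. Gja4 came first at 142, then Gja1 at 111, Ephb4 at 86.3 and Efnb2 at 12.7. The other 6 were at 2.86 or less, with Gja5 last at 0.0753. The plates did not keep the order of the leading genes. Gja4 lay above Gja1 on 3 of 4 plates, and Gja1 above Ephb4 on 2. Ephb4 lay above Efnb2 on 3 plates, all but A. With the length of all exons merged, Ephb4 (80.7) came before Gja1 (34.4), and Sema3g before Nr2f2. Neither neighbouring step among the first 3 therefore held beyond the spread of the plates.

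**Figure D2:**
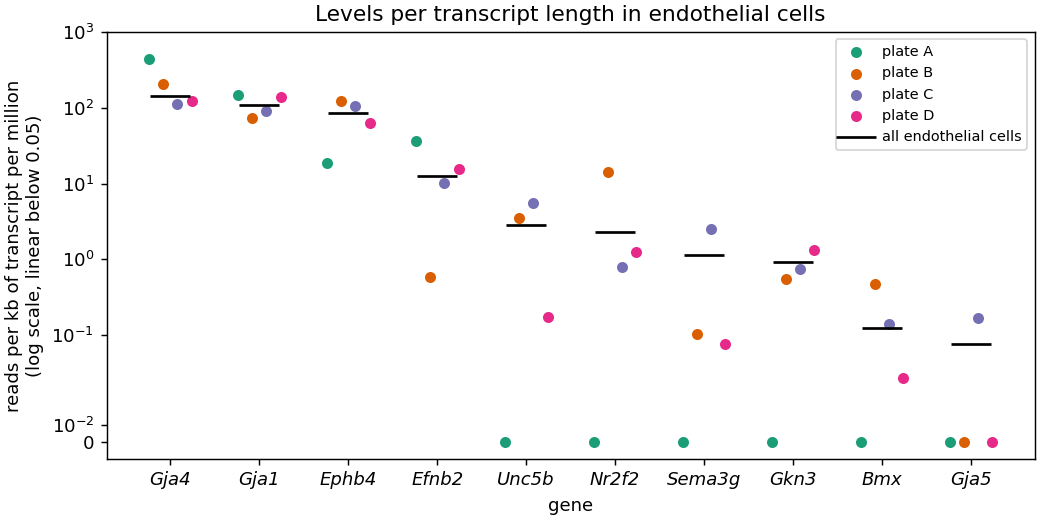
Endothelial level of each gene in CPM per kilobase of transcript (log axis, linear near 0), with points for plates and bars for the pooled value. The plates of Gja4, Gja1 and Ephb4 overlap, from 18.9 to 448, while Gja5 stays at or below 0.169 on every plate.

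Endothelial cells split almost evenly by the sets they carried. At 10 reads, 23 cells (20.7%, 13.6 to 29.5) carried arterial members only, 31 (27.9%, 19.8 to 37.2) venous members only, 24 (21.6%, 14.4 to 30.4) both and 33 (29.7%, 21.4 to 39.1) neither. These 4 intervals overlap. In the microglia class 3 cells (1.07%, 0.221 to 3.10) carried an arterial member, each time Gja5, and 277 carried neither set. The cells with neither set had a median of 128854 gene reads and 2231 genes, against 185709, 185424 and 182038 gene reads in the arterial, venous and mixed cells. The part of depth in these classes was not tested beyond thinning, after which 13 cells carried both sets (11.7%) and 43 neither (38.7%). With 1 read as the threshold 55 cells had both sets (49.5%), and with 50 reads 9 had (8.11%).

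The mixed class differed most between the larger plates. Plate C held 16 mixed cells of 50 (32.0%, 19.5 to 46.7) and plate D 5 of 44 (11.4%, 3.79 to 24.6), and these intervals overlap. Cells with arterial members only numbered 6 on plate C (12.0%) and 11 on plate D (25.0%). Venous-only cells numbered 14 on each. Plates A and B had 4 and 2 arterial-only, 0 and 3 venous-only, 1 and 2 mixed and 2 and 3 unmarked cells. Without the 18 cells bearing other markers the classes held 21, 24, 20 and 28 of 93 cells.

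**Figure D3:**
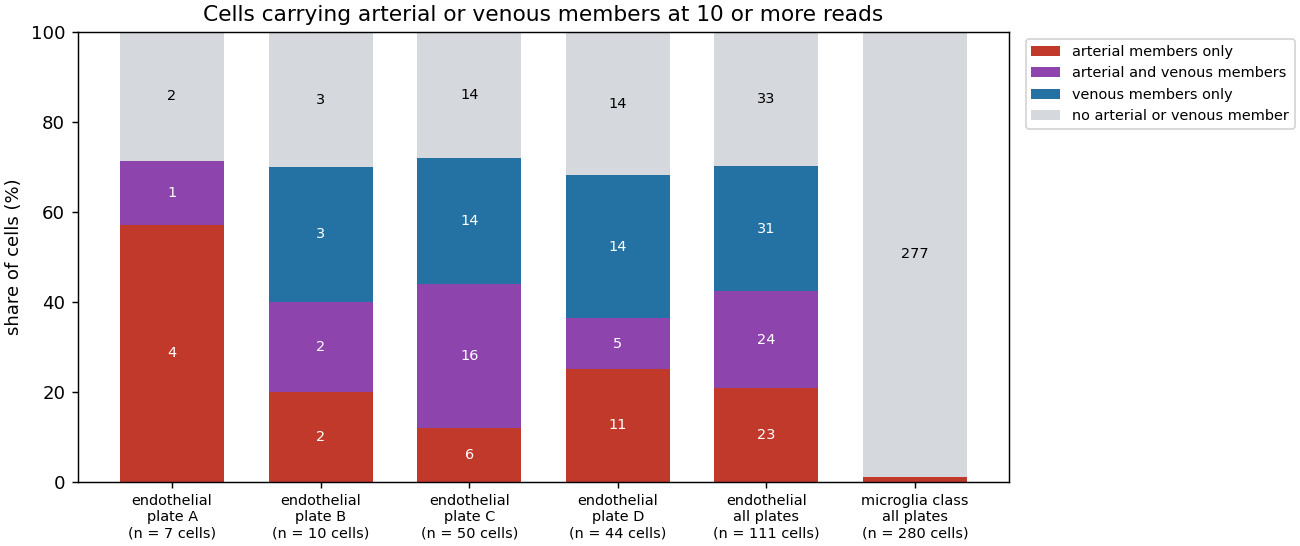
Percent of cells (y axis) carrying arterial members only, venous members only, both or neither, at 10 reads or more, by class and plate. All endothelial cells spread from 20.7% to 29.7% over the 4 classes, and 98.9% of microglia-class cells carry neither set.

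Arterial and venous members were often carried by the same cell. Of 47 arterial carriers, 24 also carried a venous member (51.1%, 36.1 to 65.9), and of the other 64 cells 31 did (48.4%, 35.7 to 61.3). The difference turned with the plate. On plate C the shares were 72.7% (49.8 to 89.3) and 50.0% (30.6 to 69.4), and on plate D 31.2% (11.0 to 58.7) and 50.0% (30.6 to 69.4). The thresholds of 1 and 50 reads gave 67.9% against 63.3% and 34.6% against 38.8%, and thinned cells 40.6% against 45.6%. In the 93 cells without other markers the shares were 48.8% and 46.2%. All these intervals overlap within each setting.

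The ligand and its receptor also met in single cells. Efnb2 and Ephb4 were both carried by 13 cells, Efnb2 without Ephb4 by 16, Ephb4 without Efnb2 by 40, and neither by 42. Ephb4 was thus carried by 44.8% (26.4 to 64.3) of Efnb2 carriers and 48.8% (37.6 to 60.1) of the other cells. The rank correlation of their levels across 111 cells, centred on plate means, was 0.02. It was -0.03 within plate C and 0.06 within plate D. Ranks were taken after centring, so cells at 0 reads rank by plate and plate differences are not fully removed. Cells share plates and differ in depth, and so weak a correlation in sparse counts is no finding. Gja4 and Ephb4 were both carried by 13 cells, or 56.5% (34.5 to 76.8) of Gja4 carriers against 45.5% (34.8 to 56.4) of the others. The 2 arterial genes Efnb2 and Gja4 shared only 7 cells, 24.1% (10.3 to 43.5) of Efnb2 carriers against 19.5% (11.6 to 29.7) of the others. The 93 cells without other markers gave 40.0% against 47.1% for Ephb4 beside Efnb2, 52.6% against 43.2% for Ephb4 beside Gja4 and 20.0% against 20.6% for Gja4 beside Efnb2, and each of these intervals overlapped too.

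**Figure D4:**
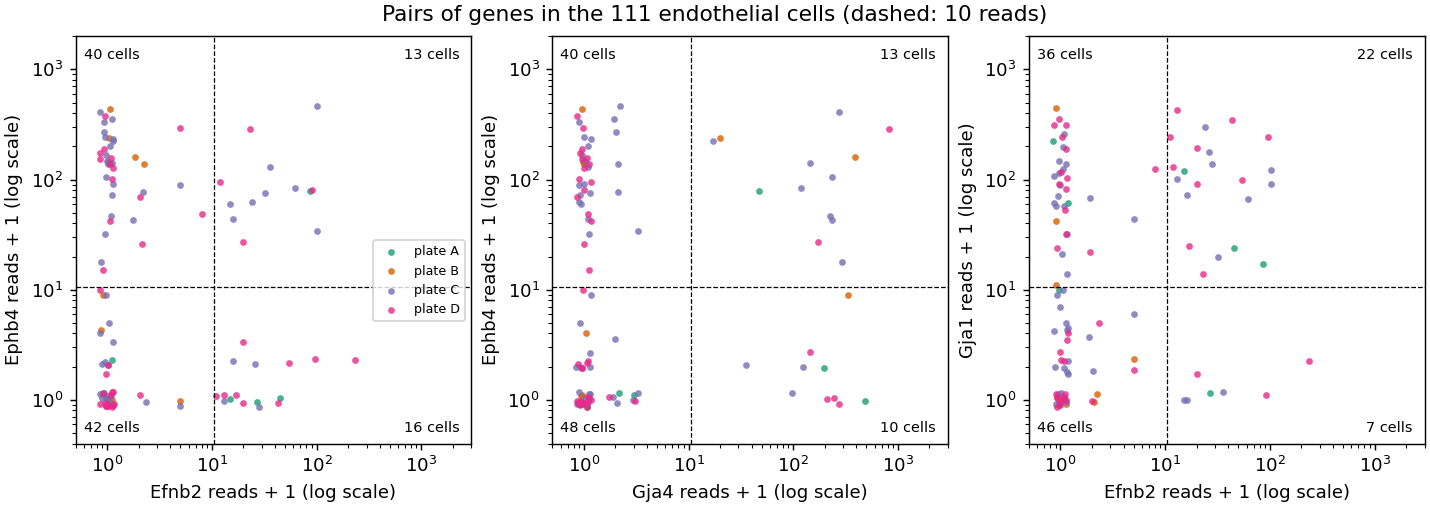
Reads plus 1 of Efnb2 and Ephb4, Gja4 and Ephb4, and Efnb2 and Gja1 in the 111 endothelial cells, on log axes, coloured by plate, with small random shifts below 5; dashed lines mark 10 reads and corner numbers count cells. Cells fill all 4 corners in each panel, with 13, 13 and 22 cells carrying both genes.

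Gja1 was set beside Efnb2, Gja4 and Ephb4 in the same way, as a description with no test. Of 29 Efnb2 carriers 22 carried Gja1 (75.9%, 56.5 to 89.7), against 36 of the other 82 cells (43.9%, 33.0 to 55.3). These intervals do not overlap, and the pair was singled out from 6 after its values were seen. The shares were 75.0% (42.8 to 94.5) against 44.7% (28.6 to 61.7) on plate C. On plate D they were 76.9% (46.2 to 95.0) against 45.2% (27.3 to 64.0), and the intervals overlap on both plates. Plate B had 0 Efnb2 carriers, and on plate A the shares were 75.0% against 66.7%. At 1 read they were 81.0% and 72.5%, at 50 reads 62.5% and 37.9%, and in thinned cells 58.3% and 42.4%, where the intervals overlapped each time. They also overlapped in the 93 cells without other markers, at 76.0% (54.9 to 90.6) and 45.6% (33.5 to 58.1). The rank correlation, ranked after centring on plate means and so not free of plate, was 0.12. It was 0.19 within plate C and 0.24 within plate D. Of 23 Gja4 carriers 17 carried Gja1 (73.9%, 51.6 to 89.8), against 46.6% (35.9 to 57.5) of the others, and these intervals overlap. The shares were 89.5% and 68.5% at 1 read, 42.1% and 39.1% at 50 reads and 52.4% and 42.2% in thinned cells, again with overlap. On plates A to D they were 66.7% against 75.0%, 66.7% against 14.3%, 81.8% against 43.6% and 66.7% against 52.6%, so the order was reversed on plate A. In the 93 cells without other markers they were 84.2% (60.4 to 96.6) and 45.9% (34.3 to 57.9), which do not overlap. Ephb4 and Gja1 were both carried by 28 cells, 52.8% (38.6 to 66.7) of Ephb4 carriers against 51.7% (38.2 to 65.0) of the others, and 54.8% against 52.9% without other markers.

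Counted by the members they carried, 23 endothelial cells carried none of the 10 genes, 30 carried 1, 38 carried 2, 13 carried 3, 6 carried 4 and 1 carried 5. Ephb4 alone was the most frequent pattern (18 cells), followed by Ephb4 with Gja1 (13), Efnb2 with Gja1 (11) and Gja1 alone (10). Gja4 alone was carried by 1 cell. The 3 cells with smooth muscle markers over 500 CPM were all Gja4 carriers, with 813, 231 and 172 reads, and all carried Ephb4 as well, with 284, 42 and 26 reads. The cell with the highest smooth muscle markers (9659 CPM) also had 28 reads of Nr2f2. A plate D cell with 271 Gja4 reads had astrocyte markers at 1792 CPM and no other member. The plate C cell with macrophage markers at 2616 CPM had 240 Ephb4 reads.

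**Figure D5:**
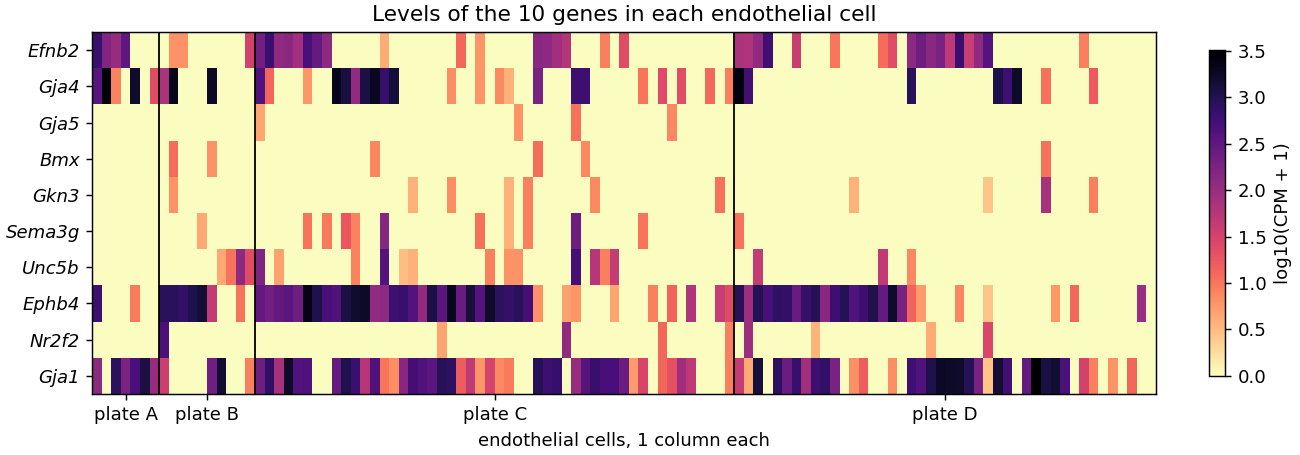
Level of each gene (rows) in the 111 endothelial cells (columns, sorted by plate and, within a plate, by the genes carried), coloured by log10(CPM + 1). Ephb4 and Gja1 fill most columns, Gja4 a small set of columns at high levels, and Gja5, Bmx and Gkn3 are nearly blank.

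Few genes followed the members from cell to cell. Among 1140 genes with 50 CPM or more and found in 50% of endothelial cells or more, the rank correlation over 111 cells, centred on plates, reached 0.29 for Efnb2 and 0.28 for Gja4. The highest gene for Efnb2 was at 0.31 and 0.35 within plates C and D, and that for Gja4 at 0.33 and 0.05. Ephb4 was most like Edf1 (0.36), a transcriptional coactivator, Ablim1 (0.34), an actin-binding protein, and Slc66a2 (0.32). Gja1 was most like Oaz2 (0.35), an antizyme of polyamine synthesis, Esm1 (0.34), a secreted proteoglycan of endothelium, and Hes1 (0.33), a Notch target. Within plates C and D, Edf1 was at 0.44 and 0.21 with Ephb4, and Hes1 at 0.24 and 0.40 with Gja1. These are the extremes of many weak values in cells that share plates and depth. For 6 other arterial genes measured that way the median correlation with Efnb2 was 0.00 and with Gja4 0.07, beside 0.01 and -0.02 over all genes. The filter kept only genes read in 50% of the cells or more. Arterial genes read in fewer cells were not measured, so these medians cannot show whether such genes follow Efnb2 or Gja4.

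Genes of the same vessel types, from lists drawn up with earlier results of these data known, gave a wider view. Of 20 other arterial genes 19 were at 1 CPM or more, 17 were at least 4-fold higher in the endothelial class and 1 in the microglia class, with a median log2 ratio of 5.30 beside -0.36 over all genes. The shares over all genes were 11.7% and 19.9%. At 10 reads 7 were carried by at least 25% of endothelial cells, as were 10.6% of all genes. They included Ltbp4 (1828 CPM), a binding protein of latent TGF-beta, Acvrl1 (1528), a receptor of the BMP family, Tm4sf1 (1432), a membrane protein, and Dll4 (570.3), a Notch ligand. In that order they were carried by 92.8%, 81.1%, 91.9% and 38.7% of endothelial cells. A level above the microglia class therefore does not by itself mark arterial cells. Of 16 other venous genes 13 were at 1 CPM or more, 5 were 4-fold higher in the endothelial class and 3 in the microglia class. The 3 of 13 lie near the 19.9% of all genes, and the median log2 ratio was -0.45. Only Flt4 (553 CPM), a receptor of lymphatic growth factors, was carried by at least 25% of endothelial cells. Of 12 capillary genes 5 were 4-fold higher in the endothelial class and 7 lay between, and their median log2 ratio was 1.43. Those 5 were each carried by at least 25% of the cells, led by Rgcc (1554 CPM), Tgm2 (1209), Gpihbp1 (835) and Cxcl12 (828). Mfsd2a, a lipid transporter of barrier capillaries, was at 2.53 CPM in the endothelial and 1.66 CPM in the microglia class, and was chosen after its values were seen.

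The families of the members, counted with the members in them, are read against the same shares over all genes, 11.7% higher in the endothelial and 19.9% in the microglia class. Of 8 B-type ephrins and receptors, 6 were at 1 CPM or more and 4 were 4-fold higher in the endothelial class, the members Efnb2 and Ephb4 with Efnb1 and Ephb1. Efnb1, the related ligand, was at 391 CPM with 40 carriers, against 29 for Efnb2. Ephb1 was at 11.9 CPM with 1 carrier, and 3 of the 8 had 0 endothelial reads. Of 23 connexins and pannexins, 15 had 0 endothelial reads and 5 were at 1 CPM or more in either class. Of those 5, 3 were 4-fold higher in the endothelial class, Gja1, Gja4 and Gjc1 (20.6 CPM, 7 carriers). Of 14 netrin and Unc5 genes, 9 were at 1 CPM or more, 6, Unc5b among them, were higher in the endothelial class and 1 in the microglia class, led by Robo4 (1948 CPM), an endothelial guidance receptor that is also among the endothelial markers. Of 14 class 3 semaphorins and receptors, 11 were at 1 CPM or more and 7, Sema3g among them, were higher in the endothelial class, with Nrp1 at 2652, Plxnd1 at 332, Sema3f at 282 and Plxna2 at 231 CPM. Sema3f was carried by 53 endothelial cells, against 2 for Sema3g. Among 5 Tec kinases 2 were at 1 CPM or more, Btk and Tec, and both were higher in the microglia class, at 76.6 and 76.0 CPM. Of 3 COUP-TF genes 2 were at 1 CPM or more, Nr2f6 (33.7 CPM) and Nr2f2, and both were higher in the endothelial class. Of the 3 gastrokines, the other two had 0 endothelial reads.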

How the data were processed

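The authors deposited raw read counts for each gene in each cell, as whole numbers. The submitters' processing notes name genome build GRCm39, featureCounts, Subread 1.4.6-p5 and SAMtools 1.16.1. Not given in the sources used here are the aligner, the annotation and the handling of strand and multiply mapped reads, so reads of overlapping genes cannot be told apart. Other information on each cell, its class code, came from a deposited cell table; the 2 codes occur as often as the 2 labelled cell types. No count column was left out (0), no cell was filtered and no doublet caller was run.

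The 10 genes and all lists were chosen with earlier results of these data known. The reads of a gene in all cells of a class were scaled to the gene reads of that class (CPM). A gene counted as higher at 4-fold or more on log2(CPM + 1), among genes that reached 1 CPM in a class, and as carried at 10 reads or more in a cell. A class at 0 was given a floor of 3 reads. All 10 members were named, with the 3 genes most like each member read in at least 25% of endothelial cells (rank correlation of at least 0.3), and up to 4 members of each list, the most abundant of those at 4-fold or more. The lists comprised other arterial, venous and capillary genes, the members' families and markers of 11 cell types. Transcript lengths came from GENCODE and promoters from RefSeq, both on GRCm38; all 10 members matched in each.

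The steps were tested on simulated data of 56941 genes for the comparison of the classes. Of 200 genes made to differ, 94.5% had a true ratio inside the 95% interval. Calls were made for 100% of those at 8-fold, 0% of those at 2-fold and 0 of 13609 genes left alone. Reads were drawn as Poisson counts for each class, the model behind the intervals, so the 94.5% follows from the design. Reads gathered in a few cells, as for Nr2f2 and Gja5, were not simulated. A rank correlation of 0.7 planted in continuous values over endothelial cells came out at 0.67, and sparse counts were not simulated there. Alternatives covered the read threshold, thinning, the marker sets, the plates, the pooling, the pseudocount, the filter, the denominator and, added after seeing the data, the cells with other markers and the length. Scripts ran in Python 3.11.15 with pandas 2.3.3, scipy 1.17.1, numpy 2.4.6 and matplotlib 3.10.9.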

Additional observations from a re-analysis of the deposited data

How the results depend on the processing

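The count of members higher in the endothelial class was 6 or 7 under every alternative run. It was 6 with means of per-cell CPM, which lost Nr2f2, and 6 on plates A and B only, which lost Sema3g. The carrier classes moved more. Cells with arterial members only (20.7%) were 35.3% on plates A and B and 12.0% on plate C. Cells with venous members only (27.9%) were 17.1% at 1 read and 17.6% on plates A and B. Cells with both sets (21.6%) were 49.5% at 1 read, 8.11% at 50 reads, 11.7% after thinning to 71000 gene reads and 11.7% with Efnb2 against Ephb4 alone. They were 32.0% on plate C and 11.4% on plate D. Cells with neither set (29.7%) were 9.91% at 1 read and 46.8% at 50 reads. A higher threshold or fewer reads can only remove carriers. The cause of the differences between plates was not tested. Without the 18 cells with other markers, an alternative chosen after seeing the data, each of the 4 shares stayed inside its interval, and 6 of the 10 members' levels moved beyond theirs. All 10 members' levels moved beyond their counting interval on plates A and B only, which hold 17 endothelial cells, 5 did with means of per-cell CPM, and none did without mitochondrial reads in the denominator. Thinning took the share of 1 of the 10 members, Efnb2, out of its interval. No paired analysis was possible because each class is 1 sample and the labels give no replicate numbers. Depth limits members whose carriers lie near 10 reads, as for Efnb2.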
